A study of Mus musculus with 8 samples.

Results

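The genes described here are 8 proton and lactate transporters of the mouse heart, taken by symbol from a count table of 23282 genes. They comprise 5 sodium-proton exchangers of the SLC9 family, Slc9a2, Slc9a3, Slc9a5, Slc9a8 and Slc9a9, and 3 lactate-proton carriers of the SLC16 family, Slc16a1, Slc16a3 and Slc16a7. All 8 were found in the table and all 8 passed the filter on low counts, in every case with reads in all 8 libraries. Total RNA of hearts was sequenced from male FVB/N mice at an age of 4 months, giving 4 libraries of wild-type and 4 of AE3-null animals. AE3 is the product of Slc4a3, an anion exchanger that moves bicarbonate out of the heart muscle cell and so loads the cell with acid. The labels give no further allele or treatment for either genotype and do not describe how the null allele was made. The design text names 4 mice of each genotype, but no label ties a library to an animal, so p-values here reflect only how far these libraries spread.

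Sodium-proton exchangers swap sodium for protons across a membrane. At the plasma membrane they use the sodium gradient to move protons out of the cell, and some members sit in intracellular organelles instead. In heart muscle, proton extrusion works beside sodium-coupled bicarbonate uptake to raise cell pH after an acid load. Monocarboxylate transporters (MCTs) carry lactate or pyruvate together with a proton, in the direction set by both gradients, so they move acid as well as fuel. A heart takes up lactate and oxidizes it, and releases lactate when oxygen is short.

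Total counts ranged from 9133628 to 27078351 per library, with AE3-null replicate 2 the shallowest. Slc4a3 lay between 378 and 389 CPM (the count scaled to a common library total, with TMM factors) in the wild-type group and between 31.5 and 34.6 CPM in the AE3-null group, so each library matched its genotype label. Cardiomyocyte markers such as Myh6, Tnnt2 and Tnni3 summed to 84885 to 91666 CPM per wild-type library and 85136 to 91822 CPM per AE3-null library. Myh6 alone averaged 47853 CPM in the wild-type and 48124 CPM in the AE3-null group. Of these 8 markers, Tnnt2 and Pln were higher in AE3-null hearts at an edgeR adjusted p under 0.05 (0.0423 and 0.0116). The other 6 did not reach that threshold. On principal component 2, wild-type replicate 3 was at -22.6 and the other libraries between -1.48 and 8.89. Over all genes, 915 of 14136 tested (6.47%) had an adjusted p under 0.05 by edgeR's quasi-likelihood test, made up of 3.16% higher in AE3-null hearts and 3.31% lower there. The genotypes did not overlap in CPM for 12.2% of tested genes, and 21.0% had an unadjusted p under 0.05.

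Of the 8 transporters, 1 rose in AE3-null hearts and none fell. The gene that rose was Slc16a7, which encodes MCT2, a high-affinity lactate and pyruvate carrier. The share of 1 in 8 stands against 6.47% of all tested genes. In 3 of the 8 the CPM values of the genotypes did not overlap, against 12.2% of all genes: Slc16a7 and Slc9a3 were higher in every AE3-null library and Slc16a3 was lower in every one. At an unadjusted p under 0.05 there were 4 of the 8, these same 3 and Slc9a2, against 21.0% of all genes. The median log2 fold change of the 8 was -0.040, with 2 positive and 6 negative values, and that of all tested genes was -0.00177. Log2 fold changes are given as AE3-null over wild-type throughout.

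**Figure D1:**
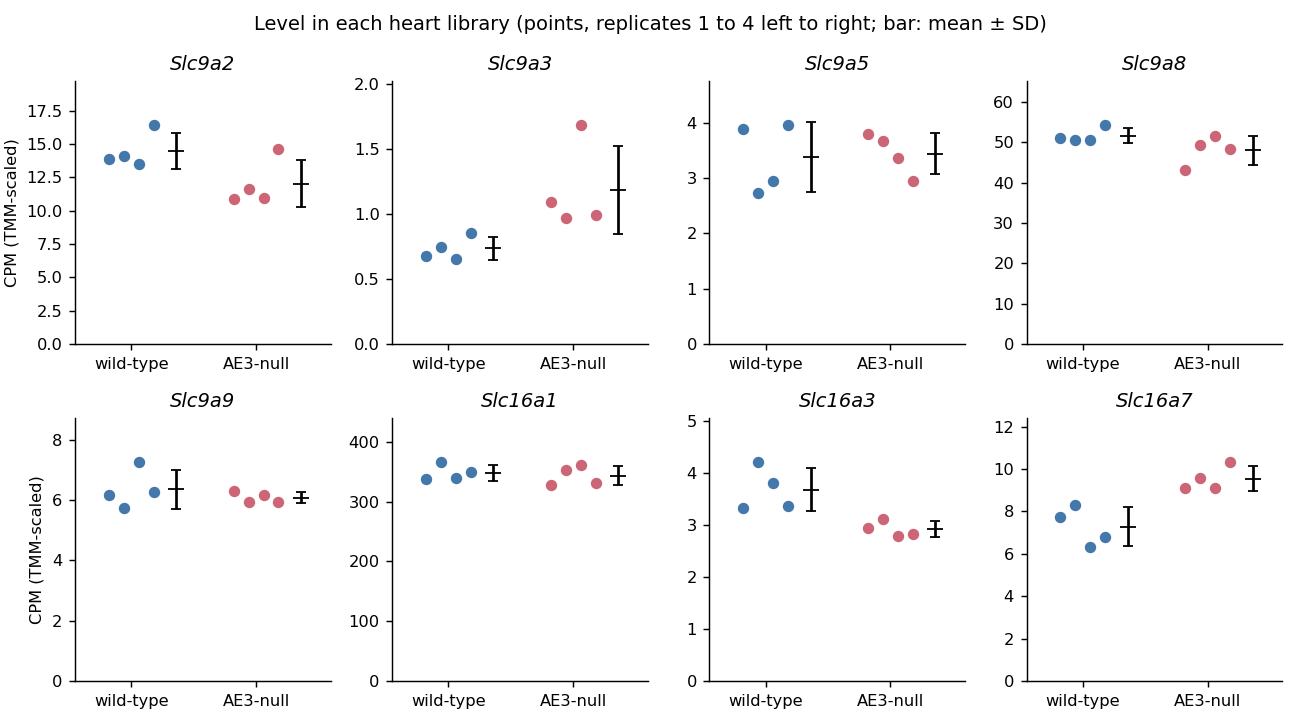
CPM of each transporter (vertical axes, each starting at 0) in the 4 wild-type and 4 AE3-null heart libraries, shown as points with the mean and SD beside them. The AE3-null points of Slc16a7 and Slc9a3 lie above all wild-type points, those of Slc16a3 lie below, and the groups overlap for the other 5 genes.

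Slc16a7 had 7.72, 8.32, 6.30 and 6.79 CPM in wild-type replicates 1 to 4 and 9.10, 9.59, 9.11 and 10.3 CPM in AE3-null replicates 1 to 4. The lowest AE3-null library was above the highest wild-type library. The mean rose from 7.28 ± 0.908 to 9.53 ± 0.589 CPM (SD, n = 4 each), a 1.31-fold difference with a 95% interval of 1.13 to 1.52. On the log2 scale the change was 0.39 (SE 0.1002), with an edgeR adjusted p of 0.0264. These levels rest on 89 to 281 counts per library. The call did not hold without wild-type replicate 4, AE3-null replicate 2 or AE3-null replicate 4, with edgeR adjusted p-values of 0.0936, 0.0538 and 0.114. It held without wild-type replicate 3, with an edgeR adjusted p of 0.0338. In a mouse annotation of build GRCm38, which is not the build of the files, an unnamed gene model on the other strand shares 179 exonic bases with Slc16a7, and a count without strand cannot separate them. None of the other 7 genes shared exonic bases with another gene there.

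Whole hearts were sequenced, so more cells of a type and more RNA per cell cannot be told apart. Most atrial cardiomyocyte markers were higher in the same libraries as Slc16a7. Of 9 atrial genes 8 rose, and none of the 9 was at 0. The exception was Bmp10, with means of 74.6 CPM in the wild-type and 72.0 CPM in the AE3-null group (log2 -0.052, edgeR adjusted p 0.862). The 9 summed to 3126 to 3705 CPM per wild-type library and 4135 to 4741 CPM per AE3-null library. Nppa was the largest part of that sum, with means of 2077 CPM in the wild-type and 2783 CPM in the AE3-null group. Of 5 tested Schwann cell and neuronal markers 1 rose, Dbh, and the 9 listed summed to 20.8 to 23.9 and 25.7 to 29.4 CPM. Their catecholamine and synaptic genes Th and Snap25 were at most 0.0737 and 0.552 CPM in any library. Of 9 smooth muscle and pericyte markers 2 rose, Myh11 and Abcc9, with 7 of the 9 positive and none at 0. Their sum was 1361 to 1417 CPM per wild-type library and 1466 to 1572 CPM per AE3-null library, without overlap. Abcc9 was the largest part of it, with means of 644 CPM in the wild-type and 720 CPM in the AE3-null group. The sum leans on this gene, so it is not a measure of how many smooth muscle cells or pericytes were present. The 2 negative markers were Rgs5 and Kcnj8 (log2 -0.046 and -0.099), neither of them called. Of 8 ventricular and general cardiomyocyte markers 2 also rose, Tnnt2 and Pln, and none fell, with the overlapping sums given above. The part of these marker lists in the rise of Slc16a7 was not tested.

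The genes whose log2 CPM followed Slc16a7 most closely over the 8 libraries were Clip4 (Pearson r 0.978), Gata6 (r 0.971), a cardiac transcription factor, and Dip2c (r 0.969). The ranking covered 10611 genes that averaged 5 CPM or more, with predicted, clone-named and pseudogene models left out. Gata6 rose from a mean of 76.8 to 88.5 CPM (log2 0.20, SE 0.047, edgeR adjusted p 0.0162), and Dip2c from 110.4 to 123.6 CPM (log2 0.16, SE 0.039, edgeR adjusted p 0.0201). Clip4 had means of 260 and 281.9 CPM and was not called (log2 0.12, edgeR adjusted p 0.0737). These correlations include the difference between the genotypes. For deviations from the genotype means, the closest were Exoc5 (r 0.992), Kcmf1 (r 0.990) and Pgap2 (r 0.981), with log2 fold changes of -0.043, -0.044 and 0.033. With 8 libraries and many genes compared, these are descriptions only.

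Slc16a1 encodes MCT1, the main lactate carrier of heart muscle. Its level was 337, 367, 339 and 349 CPM in wild-type replicates 1 to 4 and 328, 353, 362 and 332 CPM in AE3-null replicates 1 to 4. The groups overlapped over most of their range, with the lowest value in AE3-null replicate 1 and the highest in wild-type replicate 2. The means were 348 ± 13.7 and 343.9 ± 16.4 CPM (SD, n = 4 each), with a log2 fold change of -0.019 (SE 0.040, edgeR adjusted p 0.844). With 3279 to 9017 counts per library this was the most precise of the 8 estimates. Its 95% interval ran from 0.930-fold to 1.05-fold. Red blood cells also carry MCT1. None of 7 tested red blood cell markers was called by edgeR, 6 had an unadjusted p under 0.05, and the sum of the listed markers was 5286 to 8431 CPM per wild-type library and 3667 to 5073 CPM per AE3-null library. Both the tally and the sum count some reads more than once, since Hba-a1 and Hba-a2 had equal counts in all 8 libraries and Hbb-b1 and Hbb-b2 differed by at most 1 count in any library.

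Slc16a3 encodes MCT4, the lactate exporter of glycolytic cells and a known target of hypoxia-inducible factors. Wild-type replicates 1 to 4 had 3.34, 4.23, 3.80 and 3.37 CPM and AE3-null replicates 1 to 4 had 2.95, 3.12, 2.79 and 2.84 CPM. Every AE3-null library was below every wild-type library. The means were 3.68 ± 0.419 and 2.92 ± 0.149 CPM (SD, n = 4 each), a log2 fold change of -0.34 (SE 0.135). The unadjusted p was 0.0233 in edgeR, but the edgeR adjusted p was 0.156, so Slc16a3 was not called. Counts of 29 to 77 per library left a 95% interval from 0.649-fold to 0.964-fold.

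The promoters of Slc16a1 and Slc16a3 are shown because these carriers are known for different regulation, MCT4 by hypoxia, and because their levels in the heart were far apart. The windows are 300 bases long and reach from upstream of the annotated start to a little past it, on the plus strand, from RefSeq build GRCm38.p6, which held a promoter for 6 of the 8 genes. That of Slc16a1 is chr3:104638414-104638713 and that of Slc16a3 is chr11:120948817-120949116. Capitals mark ACGTG, the core of the hypoxia response element, searched on both strands.
Slc16a1: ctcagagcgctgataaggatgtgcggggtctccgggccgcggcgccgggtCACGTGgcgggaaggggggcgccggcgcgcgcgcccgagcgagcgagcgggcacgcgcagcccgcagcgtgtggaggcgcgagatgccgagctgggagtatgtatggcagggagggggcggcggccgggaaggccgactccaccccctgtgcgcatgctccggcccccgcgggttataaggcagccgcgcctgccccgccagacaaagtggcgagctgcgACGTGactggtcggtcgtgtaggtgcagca
Slc16a3: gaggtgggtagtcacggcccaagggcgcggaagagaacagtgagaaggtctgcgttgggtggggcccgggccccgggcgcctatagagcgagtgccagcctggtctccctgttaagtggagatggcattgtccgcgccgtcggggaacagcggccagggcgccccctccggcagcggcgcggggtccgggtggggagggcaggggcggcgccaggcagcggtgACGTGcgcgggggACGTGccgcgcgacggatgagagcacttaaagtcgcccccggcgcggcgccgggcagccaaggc
The Slc16a3 window held 2 separate matches close to the start. The Slc16a1 window held 3 matches, of which a pair overlap as the palindrome CACGTG, an E-box. Among the windows not shown, that of Slc9a3 held 2 matches that overlap as CACGTG, and those of Slc9a5, Slc9a8 and Slc9a9 held none. Among 32851 promoter windows of the same length 19.6% held ACGTG and 7.15% held CACGTG. A match is a stretch of letters and not a measured binding site, and no binding was measured in these hearts.

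The SLC16 carriers differed from each other in how they stood between the genotypes, though not beyond the correction for the pairs compared. The log2 ratio of Slc16a3 to Slc16a7 averaged -0.89 ± 0.181 in the wild-type group and -1.55 ± 0.106 in the AE3-null group (SD, n = 4 each). The difference was -0.66, with a two-sided exact permutation p of 0.0286 and an adjusted p of 0.0619 over 13 pairs within the families. The ratio of Slc16a1 to Slc16a7 differed by -0.39 and that of Slc16a1 to Slc16a3 by 0.27 on the log2 scale, each without overlap and with the same exact p and adjusted p. An exact p of 0.0286 is the smallest that 4 libraries against 4 can give, and 6 of the 13 pairs had it. At least 8 of the 13 would have had to reach it for any adjusted p to fall under 0.05.

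Slc9a2 encodes NHE2, a plasma membrane exchanger best known from epithelia. It had 13.8, 14.1, 13.5 and 16.4 CPM in wild-type replicates 1 to 4 and 10.9, 11.6, 10.9 and 14.6 CPM in AE3-null replicates 1 to 4. In 3 of the 4 AE3-null libraries it was below all wild-type libraries, and AE3-null replicate 4 was above 3 of the 4. The means were 14.5 ± 1.32 and 12.02 ± 1.74 CPM (SD, n = 4 each), with a log2 fold change of -0.26 (SE 0.102) and an edgeR adjusted p of 0.150. Without AE3-null replicate 4 the log2 fold change was -0.39 and Slc9a2 was called, with an edgeR adjusted p of 0.0340.

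Slc9a3 encodes NHE3, the apical exchanger of kidney and intestine, and had the lowest level of the 8. Its counts were 11, 11, 10 and 16 in wild-type replicates 1 to 4 and 26, 9, 32 and 27 in AE3-null replicates 1 to 4. Scaled to library size the wild-type values were 0.680, 0.750, 0.656 and 0.856 CPM and the AE3-null values 1.10, 0.970, 1.68 and 0.994 CPM. All AE3-null values were above all wild-type values, and AE3-null replicate 3 was the highest. The log2 fold change of 0.68 was the largest in size among the 8, and so was its error (SE 0.265, 95% interval 1.09-fold to 2.37-fold). Slc9a3 was not called (edgeR adjusted p 0.143). Without AE3-null replicate 3 the log2 fold change was 0.47. Of 9 listed epithelial markers 5 were tested and none was called by edgeR, with 1 at an unadjusted p under 0.05. Their sum was 48.9 to 56.9 CPM per wild-type library and 52.4 to 60.9 CPM per AE3-null library, most of it from Upk3b and Msln. Msln was 15.2 to 15.6 CPM in the wild-type group and 17.2 to 19.7 CPM in the AE3-null group, without overlap (edgeR adjusted p 0.0614). Epcam reached 0.632 CPM and Cdh1 0.211 CPM at most in any library. The part of epithelial markers in the values of Slc9a3 was not tested.

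Slc9a5 encodes NHE5, an exchanger known mainly from the brain. Its values were 3.89, 2.73, 2.95 and 3.96 CPM in wild-type replicates 1 to 4 and 3.79, 3.66, 3.37 and 2.95 CPM in AE3-null replicates 1 to 4. The AE3-null values lay within the wild-type range. Its log2 fold change of -0.0038 (SE 0.154) was near 0 (edgeR adjusted p 0.993). At 34 to 90 counts per library the 95% interval reached from 0.796-fold to 1.25-fold, so changes within that interval remain possible.

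The other 2 exchangers, Slc9a8 and Slc9a9, encode NHE8, found in the Golgi and at some cell surfaces, and NHE9, found in endosomes. Slc9a8 had 51.0, 50.6, 50.5 and 54.3 CPM in wild-type replicates 1 to 4 and 43.0, 49.3, 51.5 and 48.2 CPM in AE3-null replicates 1 to 4. The AE3-null libraries spread more widely than the wild-type libraries, with AE3-null replicate 1 lowest, and overlapped them through replicate 3. Slc9a8 differed by -0.11 on the log2 scale (SE 0.056, edgeR adjusted p 0.284, 95% interval 0.855-fold to 1.01-fold). Slc9a9 had 6.18, 5.73, 7.28 and 6.26 CPM in wild-type and 6.32, 5.92, 6.16 and 5.93 CPM in AE3-null replicates 1 to 4, all AE3-null values within the wild-type range. Slc9a9 differed by -0.061 on the log2 scale (SE 0.103, edgeR adjusted p 0.797, 95% interval 0.825-fold to 1.11-fold). Among the 10 pairs of SLC9 members no difference in response passed the correction. The smallest adjusted p of 0.0619 belonged to the ratios of Slc9a3 to Slc9a2, Slc9a8 and Slc9a9.

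**Figure D2:**
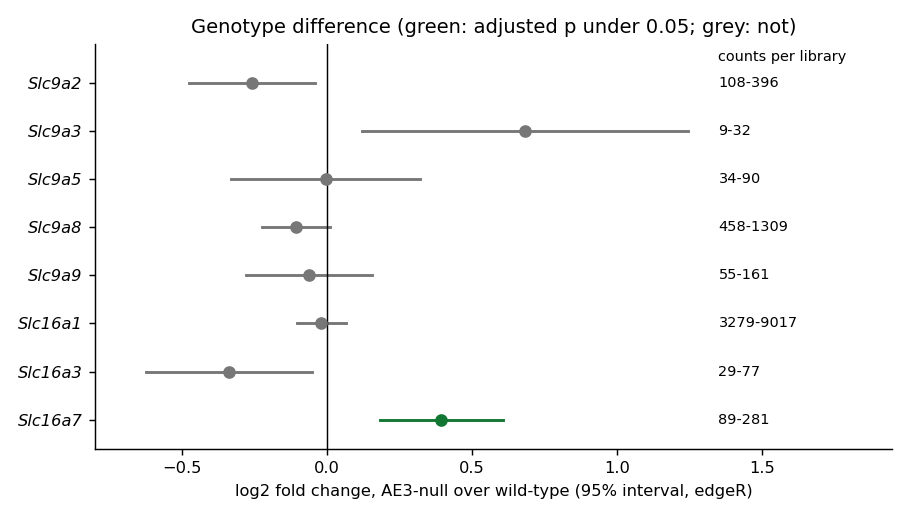
Log2 fold change of each transporter with its 95% interval from edgeR (horizontal axis), and the lowest and highest count per library at the right. Slc9a3, with 9 to 32 counts, has the widest interval and Slc16a1, with 3279 to 9017, the narrowest, and Slc16a7 is the only gene drawn as called.

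Levels between genes were compared per length, as CPM per kilobase of annotated exon. In wild-type hearts Slc16a1 was highest at 78.7 ± 3.09, followed by Slc9a8 at 11.4 ± 0.399, Slc9a2 at 2.32 ± 0.212 and Slc9a9 at 1.83 ± 0.189 (SD, n = 4). Slc9a5 at 0.967 ± 0.181, Slc16a3 at 0.828 ± 0.0943, Slc16a7 at 0.633 ± 0.0789 and Slc9a3 at 0.144 ± 0.0175 came after them. In wild-type libraries the only neighbours in this order whose ranges overlapped were Slc9a5 (0.779 to 1.13) and Slc16a3 (0.750 to 0.950). In AE3-null libraries Slc16a7 (0.790 to 0.899) was above Slc16a3 (0.627 to 0.702), the reverse of their wild-type order. There Slc16a7 overlapped Slc9a5 (0.842 to 1.08), and Slc9a2 (1.75 to 2.34) overlapped Slc9a9 (1.71 to 1.82). The order depends on the length used for Slc16a7, whose 11509 annotated exonic bases hold a coding sequence of 1452. Per kilobase of coding sequence Slc16a7 had a wild-type mean of 5.02, above Slc16a3 at 2.61 and Slc9a9 at 3.29.

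**Figure D3:**
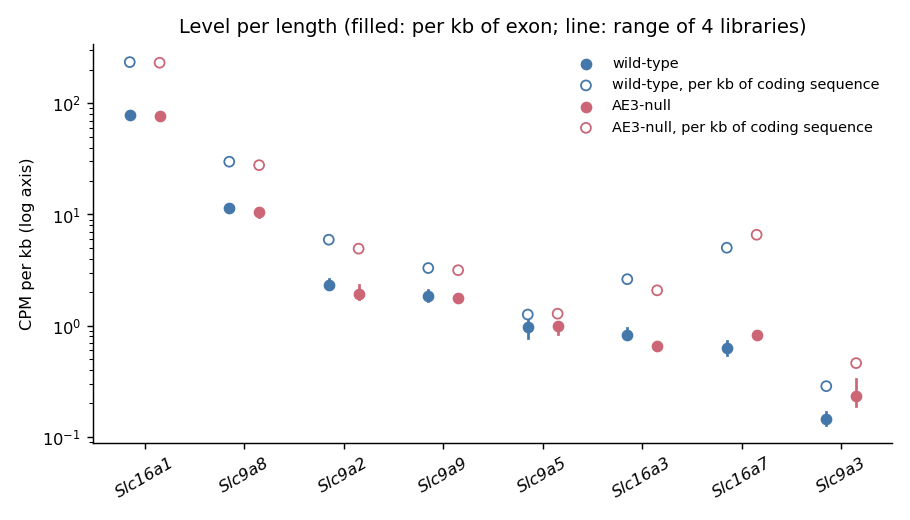
CPM per kilobase (vertical log axis) of each transporter in wild-type and AE3-null hearts, as the mean per kilobase of exon with the range of 4 libraries (filled points, lines) and per kilobase of coding sequence (open points). Slc16a1 lies above all others on both scales, and Slc16a7 moves furthest between the scales.

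Slc16a1 made up nearly all of the summed per-length level of the 3 lactate carriers, 98.2% ± 0.123 for wild-type hearts and 98.1% ± 0.128 for AE3-null hearts (SD, n = 4 each). Slc16a3 held 1.03% ± 0.0902 and 0.831% ± 0.0552. Slc16a7 held 0.789% ± 0.0827 and 1.05% ± 0.0931, or 2.06% and 2.73% when coding length was used. Slc16a7, the gene that rose, was thus a small part of this summed level in both genotypes.

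Other genes of the pathway were taken from lists of family members, partners and enzymes. Of 7 other SLC9 genes 4 were tested and none was called by edgeR, with 1 at an unadjusted p under 0.05 and none called by DESeq2 or limma voom. Slc9a7, an exchanger of the trans-Golgi network, had 1.92, 2.45, 1.64 and 2.35 CPM in wild-type and 2.78, 2.69, 2.84 and 3.28 CPM in AE3-null replicates 1 to 4. The groups of Slc9a7 did not overlap, but it was not called (log2 0.49, SE 0.165, edgeR adjusted p 0.0922).

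Among 9 regulators and scaffolds of sodium-proton exchangers 1 rose and 2 fell. Ezr, which encodes ezrin, a linker of membrane proteins to actin, rose from 66.5 ± 2.86 to 90.9 ± 4.47 CPM (SD, n = 4 each; log2 0.45, SE 0.047, edgeR adjusted p 5.43e-05). The PDZ scaffold gene Slc9a3r2 (NHERF2), which binds NHE3, fell from 129.9 ± 7.29 to 114 ± 5.06 CPM (log2 -0.19, SE 0.045, edgeR adjusted p 0.0216). The kinase gene Sgk1, whose product activates NHE3, fell from 71.9 ± 4.88 to 60.7 ± 6.13 CPM (log2 -0.25, SE 0.070, edgeR adjusted p 0.0484). The call of Sgk1 was lost in 9 of 17 alternative settings, other scalings among them, with an edgeR adjusted p of up to 0.149. Slc9a3r2 was not called once wild-type replicate 2 or AE3-null replicate 3 or 4 was left out, with edgeR adjusted p-values of 0.0531, 0.0782 and 0.0889. Some markers of 3 other cell types were also lower in AE3-null hearts. Of 12 endothelial markers 5 fell, none was at 0, and their sum was 1892 to 2097 CPM per wild-type library and 1698 to 1752 CPM per AE3-null library. All 7 tested red blood cell markers had negative log2 fold changes, with a median of -0.60 and the sums given above. Of 10 fibroblast markers 3 fell and none rose, with 6 negative and 4 positive log2 fold changes. Their sums overlapped, at 1866 to 2153 CPM per wild-type library and 1958 to 2041 CPM per AE3-null library. Lum was higher in every AE3-null library but was not called (log2 0.31, edgeR adjusted p 0.0657). The part of these lists in the falls of Slc9a3r2 and Sgk1 was not tested. Nor was that of the atrial, smooth muscle and general cardiomyocyte lists in the rise of Ezr.

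Of 11 other SLC16 genes 9 were tested, of which 1 fell and none rose. Slc16a6, an MCT family member whose best known substrate is a ketone body, fell from 17.0 ± 1.30 to 13.6 ± 0.947 CPM (SD, n = 4 each; log2 -0.33, SE 0.078, edgeR adjusted p 0.0196), without overlap between the genotypes. It was not called once wild-type replicate 2 or 4, or AE3-null replicate 1 or 4, was left out, with edgeR adjusted p-values of 0.0616, 0.0692, 0.0755 and 0.0580. MCT1 and MCT4 reach the plasma membrane with basigin, encoded by Bsg, and MCT2 mainly with embigin, encoded by Emb. Bsg fell from 1142 ± 43.9 to 1028 ± 31.4 CPM (log2 -0.15, SE 0.036, edgeR adjusted p 0.0181), and all 4 AE3-null libraries were below all wild-type libraries. Emb had 2.34 ± 0.355 and 2.55 ± 0.242 CPM and was not called (log2 0.11, SE 0.163, edgeR adjusted p 0.756). Bsg was not called once wild-type replicate 2 or 4, or AE3-null replicate 2 or 3, was left out, with edgeR adjusted p-values of 0.0639, 0.0520, 0.0700 and 0.0609. The part of the endothelial, red blood cell and fibroblast markers in the falls of Slc16a6 and Bsg was not tested.

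Of 16 tested genes of lactate and pyruvate metabolism 2 fell and none rose. The D-lactate dehydrogenase gene Ldhd fell from 48.5 ± 1.39 to 40.6 ± 3.95 CPM (SD, n = 4 each; log2 -0.25, SE 0.061, edgeR adjusted p 0.0224). Pcx, which encodes pyruvate carboxylase, fell from 49.0 ± 1.97 to 41.6 ± 2.01 CPM (log2 -0.23, SE 0.051, edgeR adjusted p 0.0113). The genotypes did not overlap for either gene. Ldhd was not called once wild-type replicate 4 or AE3-null replicate 1 or 2 was left out, with edgeR adjusted p-values of 0.0851, 0.0869 and 0.0662. Of 3 tested sodium-coupled bicarbonate transporters, which take up bicarbonate and so counter an acid load, 1 fell: Slc4a4, from 72.8 ± 4.56 to 58.3 ± 4.22 CPM (log2 -0.32, SE 0.058, edgeR adjusted p 0.0037). The part of the endothelial, red blood cell and fibroblast markers in the falls of Ldhd, Pcx and Slc4a4 was not tested. Over these 6 lists 8 of 43 tested genes passed the threshold, 1 up and 7 down, against 6.47% of all tested genes in either direction. The lists were drawn up with earlier results of these data known, so this share supports nothing further.

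**Figure D4:**
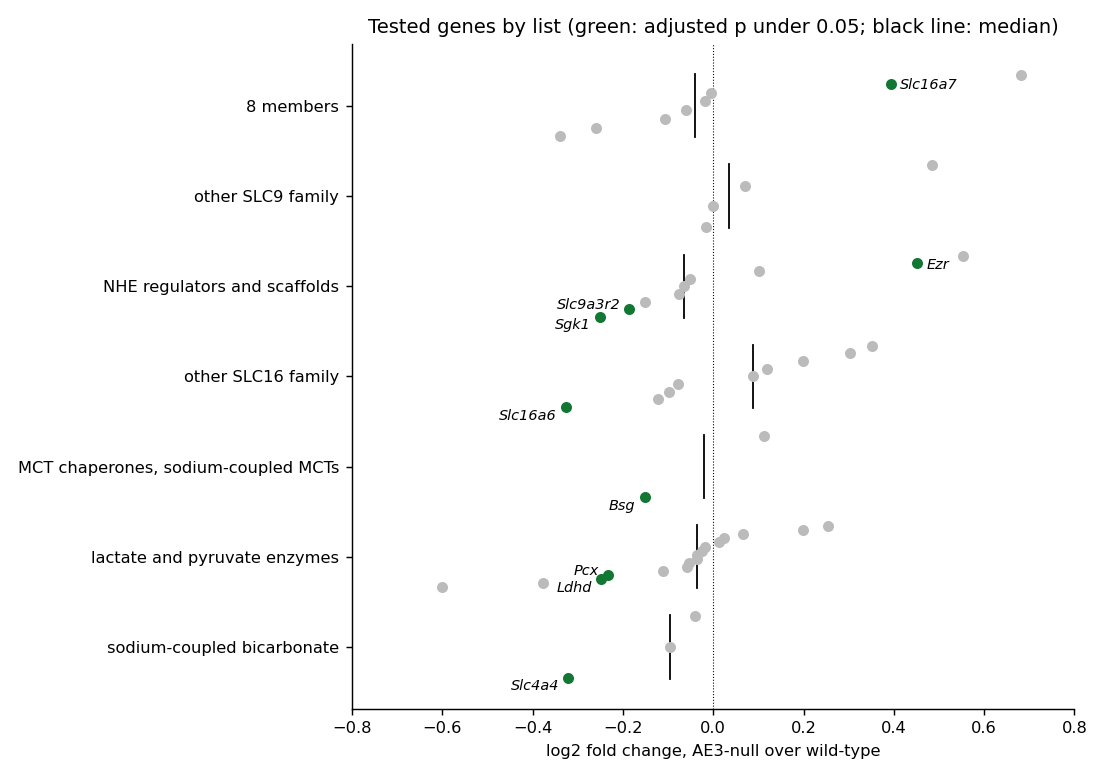
Log2 fold change (horizontal axis) of the 8 transporters and of the tested genes of each pathway list (rows), with the list median as a black line and called genes in green with their names. Called genes other than Slc16a7 and Ezr lie to the left of 0, and the medians lie between -0.10 and 0.09.

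The direction of Slc16a7, Slc16a3, Slc9a2, Slc9a3 and Slc9a8 was the same in every setting and left-out fit that tested them, and that of Slc16a1, Slc9a5 and Slc9a9, all near 0, was not.

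**Figure D5:**
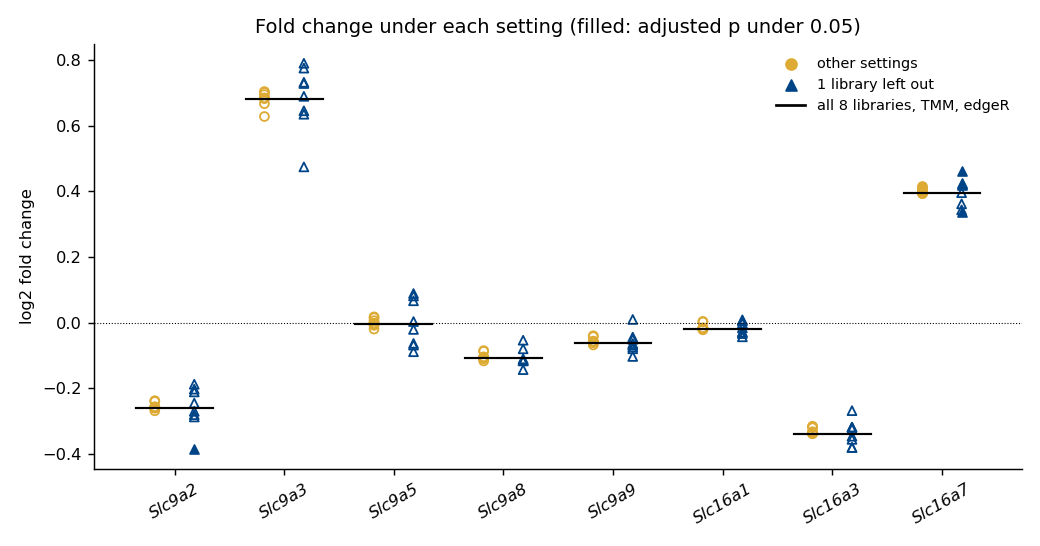
Log2 fold change (vertical axis) of each transporter with all 8 libraries (black line), under 9 other settings (circles) and with each library left out (triangles), filled where the adjusted p was under 0.05. Slc16a7 stays between 0.34 and 0.46, and Slc9a2 is filled once, without AE3-null replicate 4.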

How the data were processed

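Read counts per gene were used as deposited by the authors, 1 column per library, and were not normalized before deposit. The submitters' processing notes name bcl2fastq, CASAVA 1.8, TopHat, DESeq and the mouse build mm9. How reads were counted, with which annotation and strand setting, is not given in the sources used here. Entrez numbers were matched to symbols in a RefSeq table of GRCm38.p6 (23185 of 23282). Exon lengths came from GENCODE M21 on GRCm38, so lengths may differ from those the counting used.

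Genotypes came from the titles. Genes were kept by filterByExpr with a minimum count of 10, scaled by TMM and tested across all genes with edgeR 4.0.16 (quasi-likelihood F test, robust, no covariates, R 4.3.3), with Benjamini-Hochberg adjustment over 14136 genes and an adjusted p under 0.05 as a call. Each standard error was the absolute log2 fold change divided by the square root of F, and intervals are at 95%. Pair ratios used log2 CPM with a pseudocount of 0.5 and an exact two-sided permutation test over 70 splits. No library was a copy of another of its genotype (chi-square over shared counts 2.51 to 7.40 per gene).

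The 8 genes, the pathway lists and the marker lists were chosen with earlier results of these data known. Named genes are all 8, then the called members of each pathway list (at most 4), or the 2 with the smallest p where none was called, and for Slc16a7 the 3 genes of closest pattern by each measure. Epithelial, neuronal, atrial and other marker genes and Emb, which fall outside this rule, were named after their values were seen. A gene that the rule also names is not reported here. Alternatives were RLE or total-count scaling, totals without the 10 most abundant genes, no filter, a minimum count of 50, DESeq2 1.42.0, limma voom 3.58.1, no robust moderation, a replicate block and the omission of each library.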

Additional observations from a re-analysis of the deposited data

Results flagged for a closer look

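In 1 of 34 groups of 4 libraries examined, for the 8 transporters and the 9 named pathway genes, 1 library lay far from the other 3 by Dixon's test at its 95% limit, which chance alone does in about 1 group in 20. Slc9a8 was at 54.3 CPM in wild-type replicate 4, with the other wild-type libraries at 50.5 to 51.0 CPM.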

How the results depend on the processing

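The number of genes called over the whole table was 844 to 1002 under the 9 other settings and 407 to 1727 with 1 library left out, highest without wild-type replicate 3 and lowest without AE3-null replicate 4. Slc16a7 was called under all 9 other settings (log2 0.39 to 0.42) and in 5 of 8 fits with 1 library left out (0.34 to 0.46). Slc16a3, Slc9a3 and Slc9a8 were called in none of the fits run, and kept their direction, with 1 library left out at -0.38 to -0.27, 0.47 to 0.79 and -0.14 to -0.054. Slc9a2 ranged from -0.39 to -0.19 with 1 library left out. Values near 0 changed sign: Slc9a5 was 0.015 with total counts, 0.018 without the 10 most abundant genes and 0.0059 by DESeq2, and -0.089 to 0.089 with 1 library left out. Slc16a1 was 0.0019 with total counts and 0.0038 without the 10 most abundant genes, and -0.043 to 0.0084 with 1 library left out, and Slc9a9 was -0.10 to 0.0097. The cause was not tested. The 6 pathway lists held 8 called genes, and 4 to 9 with 1 library left out. Slc9a3 could not be tested at a minimum count of 50.

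The replicate numbers are shared between genotypes, but libraries of the same number deviated together little (correlations 0.162, -0.040, 0.015 and -0.0028). Wild-type replicate 1 and AE3-null replicate 1 were each other's closest match, and replicates 2, 3 and 4 of each genotype were closest to another number. Such correlations cannot decide whether the numbers mark a shared batch or pairing. With the replicate block 1002 genes were called, the log2 fold change of Slc16a7 was 0.41 and that of Slc9a2 -0.27, with an edgeR adjusted p of 0.0504 for the latter. Counts of 9 to 32 for Slc9a3 and 29 to 77 for Slc16a3 limit what can be resolved for them.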

Other observations

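Pdhb, which encodes the beta subunit of the pyruvate dehydrogenase E1 enzyme and was singled out after its values were seen, fell into 2 levels that did not follow genotype. It had 288 CPM in wild-type replicate 3 and 286 and 266 CPM in AE3-null replicates 2 and 3, against 374 to 392 CPM in the other wild-type and 411 and 412 CPM in the other AE3-null libraries. Between genotypes it differed by -0.053 on the log2 scale (SE 0.191, edgeR adjusted p 0.915). The other members of the pathway list that take pyruvate into the mitochondrion or oxidize it there, Mpc1, Mpc2, Pdha1 and Dlat, were not called.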
